A study of Mus musculus with 2 samples.

Results

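Trimethylation of histone H3 at lysine 4 (H3K4me3) was examined over 31 smooth muscle contractile genes, all of the genes listed for this purpose, among 21883 protein-coding genes in all. The mark was profiled by chromatin immunoprecipitation and sequencing in NOS1+ neurons sorted from the mouse small intestine, NOS1 being the enzyme with which neurons make nitric oxide. There was 1 immunoprecipitated library, made with an antibody to H3K4me3, and 1 input library from the same kind of cells, whose own data were not analysed here. The sources used here do not give strain, genotype, age, sex, number of animals or the way the cells were sorted, and they name no treatment. The values are the positions, widths and scores of called peaks in 1 library, so no value has a replicate, no difference was tested, and the depth is unknown. Fewer cells with the mark and less of the mark per cell cannot be told apart in such a list.

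H3K4me3 is laid down around the start sites of active and poised genes, usually as a compact block on both sides of the start. Smooth muscle of the gut wall contracts when calcium and calmodulin switch on myosin light chain kinase, which lets smooth muscle myosin pull on actin filaments anchored at dense bodies and adhesion plaques. Serum response factor (SRF) and its partners myocardin and the MRTF proteins drive many of these genes through a DNA element called the CArG box. Nitrergic neurons, the cells of this sort, relax the same muscle through nitric oxide, cyclic GMP and the kinase encoded by Prkg1.

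At most of these genes the mark was called as more than 1 peak, often as a wide, strong peak with weak ones beside it. A peak lay over the gene model, taken with 1 kb to each side, at 30 of the 31 genes, against 67% of all protein-coding genes. With the lower-scored 50% of the list dropped it was 22 of the 31, against 57.7%. With just the top 25% kept it was 14 of the 31, against 37.3%. Peaks with gaps of at most 1 kb were then joined into a domain, and the widest domain of each gene was kept. At 18 of the 31 genes this domain held at least 3 peaks, called fragmented below, against 7.5% of all protein-coding genes and 11.2% of those with a peak. This count rests on weak and narrow peaks: it was 9 with only peaks at least 300 bp wide, 2 when the lower-scored 50% of the list was dropped and 0 when just the top 25% was kept, against 2.07%, 0.324% and 0.00457% of all protein-coding genes. At least 5 peaks in the domain were found at 9 of the 31, against 0.713% of all protein-coding genes. The median gene with a peak had 4 peaks in its widest domain and a domain of 3415.5 bp, against 1 peak and 1796 bp over all protein-coding genes with a peak. The widest single peak per gene was about as wide as elsewhere, with a median of 1625 bp against 1515 bp.

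The fragmented domains of the smooth muscle genes had lower coverage and larger gaps than those of all genes, but they also held more peaks. Their median was 4.5 peaks per domain, against 3 over all fragmented domains. A domain with more peaks has more gaps, and domains of equal peak number were not compared. Peaks covered a median of 74.6% of the length of the 18 domains, against 86.8% of the 1641 fragmented domains of all genes. The largest gap within the domain exceeded 300 bp at 14 of the 18 genes, against 37.5% of all fragmented domains. Over the members' widest domains there were 80 gaps with a median of 192 bp, from 55 to 983 bp, against a median of 134 bp over all genes.

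**Figure D1:**
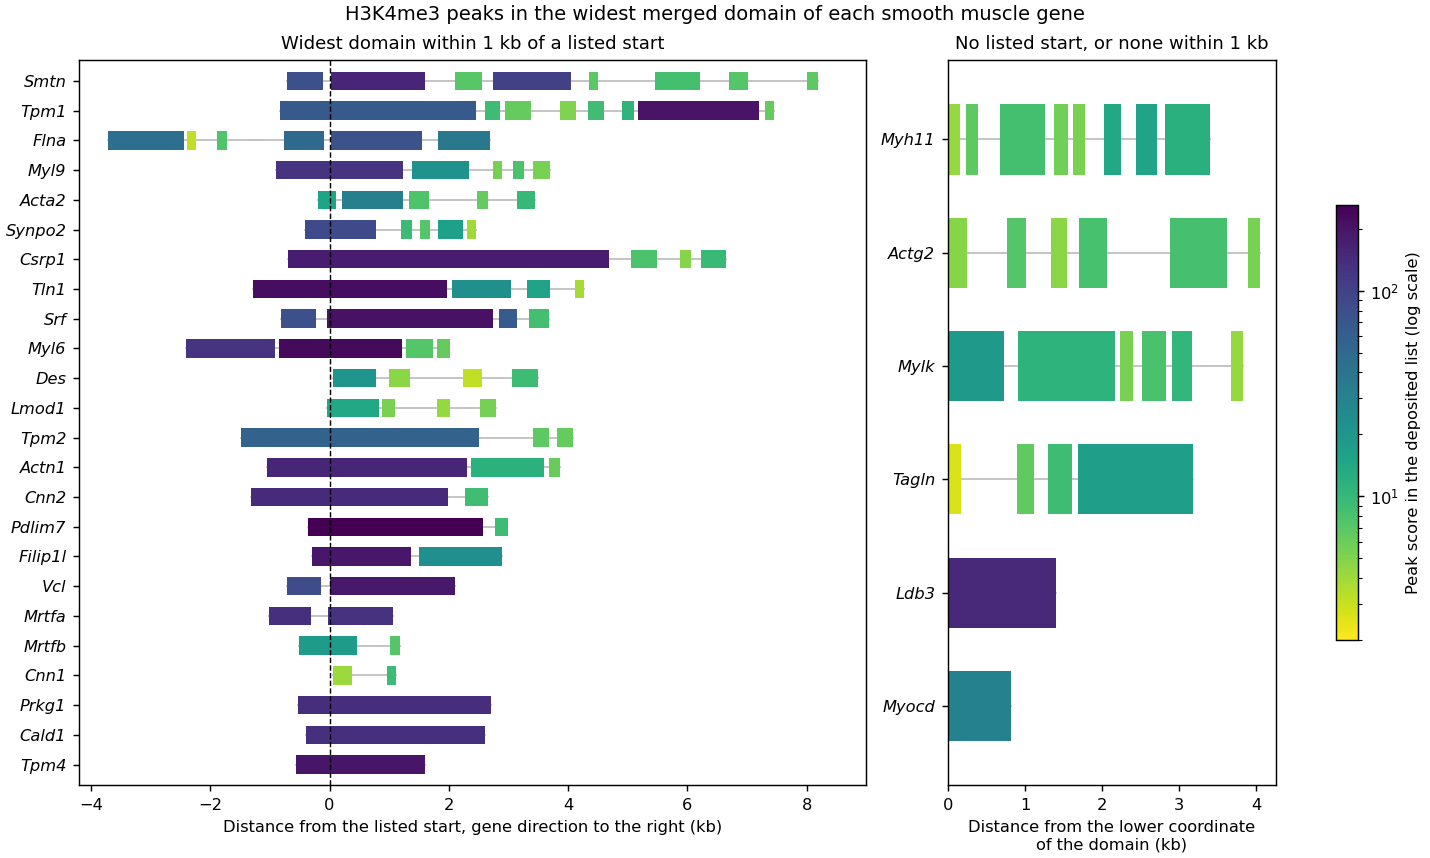
Peaks in the widest merged domain of the 30 genes with a peak. The left panel gives the distance in kb from the listed start for 24 genes, with the gene running to the right and the dashed line at the start, and the right panel the distance in kb from the domain's lower coordinate for 6 genes without a listed start within 1 kb. Bars are peaks, coloured by score on a log scale, and grey lines are gaps. The Smtn domain runs from 716 bp before to 8182 bp after the start in 8 peaks, while Tpm4 has 1 peak.

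Many of the narrow peaks lay after the start of the gene. Start sites and strand were listed for 27 members. Over the 26 of these with a peak, 22 of 124 peaks covered a listed start, with medians of 2145 bp in width and 135 in score. Another 41 peaks, at 18 genes, lay between 1 and 5 kb downstream, with medians of 271 bp and 7.83. Only 4, at 2 genes, lay more than 1 kb upstream. The window ends 1 kb beyond the gene model, so most peaks farther upstream could not be counted. The numbers on the 2 sides of a start are therefore not comparable. Peaks between 1 and 5 kb downstream were as narrow and low-scored over all protein-coding genes (median 253 bp and 7.18), but they were found at 19.5% of genes with a listed start and a peak, and made up 13.2% of peaks there against 33.1% over the members. The score is the authors' and serves here only to rank and describe peaks within this list, whose median score was 35.7.

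The widest domain came within 1 kb of a listed start at 24 of the 26 genes (90.3% over all protein-coding genes) and spanned one at 22 (85.6%). A median of 82.8% of the domain's length lay downstream of the start, against 66.4% over all genes. Both shares come from the same window, which leaves out peaks lying wholly more than 1 kb outside the model. At Smtn, Flna and Vcl the start itself fell into a gap of the domain and not under a peak. The gap at the Smtn start reached from -105 to 27 bp, that at Flna from -93 to 15 bp and that at Vcl from -149 to 7 bp. A start in a gap was found at 5.31% of all genes with a listed start and a peak.

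The promoters of 5 members are shown because their CArG boxes fell at different places relative to the peaks. Each runs from 250 bases before to 50 after a listed start, 5′ to 3′ along the gene, from RefSeq on GRCm38.p6, and capitals mark a CArG box, counted only as CC, then exactly 6 letters that are each A or T, then GG. Shorter runs and imperfect boxes were not counted and stand in lower case. Srf (chr17:46556113-46556412, minus strand), whose product binds the CArG box, had a pair of them. Vcl (chr14:20929148-20929447, plus strand) and Myl9 (chr2:156775214-156775513, plus strand) had 1 each under a peak. Ldb3 (chr14:34588558-34588857, minus strand) had 1 but no peak within 1 kb of its listed starts, and Acta2 (chr19:34255324-34255623, minus strand), a fragmented gene with low scores, had no box of this exact form in the window, which says nothing of shorter or imperfect ones.
Srf: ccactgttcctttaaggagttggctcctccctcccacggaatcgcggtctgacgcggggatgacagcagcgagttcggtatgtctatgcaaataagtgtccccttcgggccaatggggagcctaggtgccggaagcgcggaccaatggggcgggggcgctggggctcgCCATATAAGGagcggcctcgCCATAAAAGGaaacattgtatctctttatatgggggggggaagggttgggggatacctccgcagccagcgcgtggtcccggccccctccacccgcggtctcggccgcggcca
Vcl: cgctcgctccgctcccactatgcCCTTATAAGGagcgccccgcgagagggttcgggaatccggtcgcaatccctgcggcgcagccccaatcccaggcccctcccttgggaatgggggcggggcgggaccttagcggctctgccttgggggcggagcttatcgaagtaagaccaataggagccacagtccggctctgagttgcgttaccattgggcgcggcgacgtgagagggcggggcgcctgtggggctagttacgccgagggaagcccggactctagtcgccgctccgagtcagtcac
Myl9: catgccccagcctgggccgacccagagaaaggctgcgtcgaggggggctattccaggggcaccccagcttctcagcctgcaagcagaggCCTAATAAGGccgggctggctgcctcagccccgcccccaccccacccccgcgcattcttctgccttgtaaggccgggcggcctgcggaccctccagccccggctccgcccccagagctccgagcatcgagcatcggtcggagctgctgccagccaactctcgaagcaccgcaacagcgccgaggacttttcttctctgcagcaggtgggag
Ldb3: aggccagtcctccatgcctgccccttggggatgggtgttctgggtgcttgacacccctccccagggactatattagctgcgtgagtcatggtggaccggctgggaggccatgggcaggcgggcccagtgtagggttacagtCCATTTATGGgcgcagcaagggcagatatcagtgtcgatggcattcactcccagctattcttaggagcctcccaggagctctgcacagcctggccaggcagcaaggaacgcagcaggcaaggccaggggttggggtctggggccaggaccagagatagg
Acta2: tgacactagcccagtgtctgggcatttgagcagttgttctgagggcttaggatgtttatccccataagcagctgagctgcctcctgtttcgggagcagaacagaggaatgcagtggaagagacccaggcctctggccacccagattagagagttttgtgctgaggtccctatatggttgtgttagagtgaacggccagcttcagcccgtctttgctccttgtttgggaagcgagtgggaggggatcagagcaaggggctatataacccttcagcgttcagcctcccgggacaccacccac

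A CArG box of this form, a pattern that finds the same places on both strands, was found at 7 of the 27 members with a sequence, against 1.76% of the 17491 protein-coding genes with one. A gene counted when the promoter window of any of its listed starts held a box. These were Srf, Vcl, Myl9, Ldb3, Cnn2, Filip1l and Myl6. Counting the start as position 0, the boxes of Srf began at -82 and -62, inside the gap from -235 to -50 bp that split its domain. The box of Myl9 began at -161 under a peak of 2129 bp, and that of Vcl at -227 under a peak of 562 bp. The boxes of Cnn2 (-56), Filip1l (-62) and Myl6 (-50) also lay under a peak. Of these 7 genes, Srf, Myl9 and Myl6 had a fragmented domain. A box was thus found at 3 of the 15 fragmented members with a sequence, and at 4 of the 12 others. Over all genes with a sequence and a peak, 17.4% of the 184 with a box were fragmented, and 10.8% of the 11494 without. The letters TATAAA, on either strand, were in a window of 4 of the 27 members, or 14.8%, and of 14.8% of all genes with a sequence. A match of letters is a description of the window and shows no binding.

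Promoters rich in CpG tend to hold the mark whatever the cell type, and the members differed in CpG content. Where a gene has several listed starts, as 8 members do, the window with the most CpG was counted. The 300 bp window held a median of 17 CpG at the 15 fragmented members with a sequence and 30 at the 11 with a peak that was not fragmented. Over all genes the order was the other way, with 23 at fragmented genes and 21 at the others with a peak. Of the 11 members in the middle class of CpG content, of 3 classes of similar size, 7 to 22 per window, 10 were fragmented, Prkg1 being the exception. Of the 10 in the highest class, 3 were (Actn1, Srf and Tpm1), and of the 6 in the lowest class, 2 were (Acta2 and Mylk). Over all genes with a peak the fragmented share was 9.52%, 10.4% and 11.7% from the lowest to the highest class.

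Both smooth muscle actins had long, weak runs. Acta2, the alpha actin also found in vessels and myofibroblasts (chromosome 19, 34240336 to 34255585, mm10), had 5 peaks in 3643 bp, from 192 bp before to 3450 bp after its start. Along the gene they were 306, 1021, 338, 186 and 302 bp wide, with scores of 15.2, 32.6, 7.83, 6.36 and 9.96. The start thus lay under a weak peak, and the strongest peak followed it. Actg2, the gamma actin of visceral muscle (chromosome 6, 83512909 to 83536251), had 6 peaks in 4054 bp, all inside its model near the upper coordinate. They were 154 to 739 bp wide with scores between 4.67 and 8.38, the lowest highest-score of any fragmented member, and covered 48.3% of the domain. The cytoplasmic actin genes, which most cells use, also had several peaks but strong ones. Actb had 3 peaks in 5222 bp with a highest score of 204, and Actg1 4 peaks in 5474 bp with 203.

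All 4 genes of the myosin motor and its switch were fragmented. Myh11, the smooth muscle myosin heavy chain (chromosome 16, 14194527 to 14292188), had 8 peaks in 3398 bp across the upper end of its model. Their widths were between 153 and 580 bp and their scores between 4.33 and 15.4. Only 13 protein-coding genes, or 0.0594%, had at least 8 peaks in their widest domain, and Myh11, Smtn and Tpm1 were 3 of them. Of these 3 members, Myh11 had the narrowest domain and the lowest scores. Its nonmuscle relatives had fewer and stronger peaks, with 3 at Myh9 (highest score 240), 2 at Myh10 (172) and 2 at Myh14 (46.4).

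Mylk, the gene of myosin light chain kinase (chromosome 16, 34745199 to 35002436), carried its peaks far from its 1 listed start, which had none within 1 kb. A 432 bp peak scoring 28.3 lay near the lower end of the model, 39291 bp before the listed start. The widest domain began 136625 bp after the listed start and held 6 peaks in 3827 bp, 156 to 1262 bp wide, with scores between 4.33 and 18.6. A second run of 5 peaks in 3042 bp began 210665 bp after the start, with scores between 3.87 and 11.6. Mylk is known to use internal starts in smooth muscle, among them that of telokin near its end, but the gene table does not list them and the runs were not assigned. Mylk2 and Mylk3, the kinases of skeletal and heart muscle, had no peak.

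The light chain genes combined a strong peak at the start with weak ones after it. Myl9, the regulatory light chain that the kinase phosphorylates (chromosome 2, 156775408 to 156781657), had 5 peaks in 4605 bp. The first, over the start, was 2129 bp wide with a score of 126, and the next 963 bp with 22.3. The last 3 were 153, 193 and 285 bp wide and scored 5.50, 7.88 and 5.43. Myl6, the essential light chain of smooth and nonmuscle myosin (chromosome 10, 128490859 to 128493886), had 4 peaks in 4417 bp and gaps of only 191 bp in all, with scores of 228 over the inner listed start and 126 upstream, where the peak also lay over the end of the model of Myl6b. The nonmuscle light chain genes Myl12a (3 peaks, highest score 204) and Myl12b (1 peak, 223) were as strong as Myl6 and stronger than Myl9.

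The regulators of the thin filament ranged from the widest joined run of the members to 1 plain block. Smtn, the actin-binding protein smoothelin (chromosome 11, 3517522 to 3539292), had 15 peaks over its model. With gaps of at most 1 kb joined, its widest domain was the widest among the members and ranked 22 among all genes. This domain held 8 peaks in 8899 bp, of which 59.9% was covered. The width depends on the joining distance. With gaps of at most 500 bp joined it was 2388 bp with 3 peaks, and with 2 kb it was 14001 bp with 14 peaks. The domain of Tpm1 stayed at 8286 bp at both of these distances. Along the gene the 8 peaks were 611, 1576, 439, 1299, 155, 745, 333 and 176 bp wide, with scores of 78.5, 156, 7.26, 101, 6.93, 8.58, 7.42 and 6.67. The strong ones thus flanked the start and lay 2742 to 4040 bp after it, and a further run of 5 weak peaks in 2287 bp began 9385 bp after it. Tpm1, a tropomyosin (chromosome 9, 67022590 to 67049672), had 8 peaks in 8286 bp, in which 2 strong peaks stood at the sides. That over the start was 3289 bp wide with a score of 66.4, and the other, 5169 to 7195 bp after it, 2027 bp wide with the higher score of 203. The 5 peaks between them were 206 to 432 bp wide and scored between 5.14 and 10.9, and the last, beyond the stronger peak, was 153 bp wide and scored 6.28. The promoter table used here holds 1 start for Tpm1, and the stronger peak was not assigned to a start.

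The other tropomyosin genes were simpler. Tpm2 (chromosome 4, 43513726 to 43523583) had 3 peaks in 5560 bp, 1 of 3992 bp with a score of 57.6 over the start and 2 of 270 bp. Tpm4, a mostly nonmuscle form (chromosome 8, 72135288 to 72153142), had 1 peak, 2161 bp wide and scoring 198. Tpm3, counted with the nonmuscle genes, had 3 peaks in 3197 bp and a highest score of 211.

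Among the transgelins and calponins, proteins that bind actin, the smooth muscle forms Tagln and Cnn1 had the lowest scores. Tagln, transgelin or SM22 (chromosome 9, 45929628 to 45936058), had 4 peaks in 3187 bp. The widest, 1503 bp with a score of 17.4, lay across the upper end of its model, and the others, inside the model, were 319, 228 and 175 bp wide with scores of 9.06, 6.57 and 2.66. Tagln2, the nonmuscle form, had 2 peaks in 5038 bp with a highest score of 232, and Tagln3, the neuronal form, 1 peak of 1094 bp with 27.3. Cnn1, the smooth muscle calponin (chromosome 9, 22099221 to 22109221), had the second narrowest domain of the members. Its 2 peaks, of 322 bp (score 4.14) and 159 bp (score 9.41), began 62 and 956 bp after the start, and the start was not covered. Cnn2 and Cnn3, the broadly used calponins, had widest peaks of 3295 bp (score 146) and 3451 bp (score 207).

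Lmod1, leiomodin, which nucleates actin filaments in smooth muscle (chromosome 1, 135324813 to 135368065), had 4 peaks in 2832 bp from 38 bp before to 2793 bp after its start. They were 860, 209, 204 and 271 bp wide and scored 13.9, 5.29, 4.33 and 5.50. A separate 921 bp peak scoring 61.7 lay beyond the other end of the model. Lmod2 and Lmod3, of striated muscle, had no peak. Cald1, caldesmon (chromosome 6, 34598495 to 34775469), had no fragmented domain. It has 2 listed starts, and each lay under a block, of 2998 bp (score 132) and 2113 bp (score 107).

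Among the transcription factors of the pathway only Srf had a fragmented domain. Srf (chromosome 17, 46546838 to 46558267) had 4 peaks in 4503 bp, of 587, 2792, 310 and 344 bp along the gene, with scores of 79.4, 211, 65.3 and 8.62. The remaining peak, 1243 bp wide and scoring 143, lay within 1 kb of a start of Cul9. Myocd, which encodes myocardin, the coactivator restricted to smooth and heart muscle (chromosome 11, 65173608 to 65269989), had 1 peak, 819 bp wide and scoring 31.5, across the upper end of its model. Mrtfa (chromosome 15, 81012281 to 81190736) had 2 peaks at its outer start, 1104 and 706 bp wide with scores of 129 and 132, and 2 of 183 and 153 bp after its inner start, with scores of 12.6 and 5.74. Mrtfb (chromosome 16, 13256056 to 13417529) had 1589 bp with a score of 169 at its outer starts and 959 bp with 17.9 at its inner one. At both MRTF genes the outer start thus had the stronger mark. The widest joined domain of Mrtfb was nevertheless the inner one, of 1688 bp, since a peak of 170 bp was joined to it. Peaks covered 66.9% of this domain, against 89.6% of the widest domain of Srf.

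**Figure D2:**
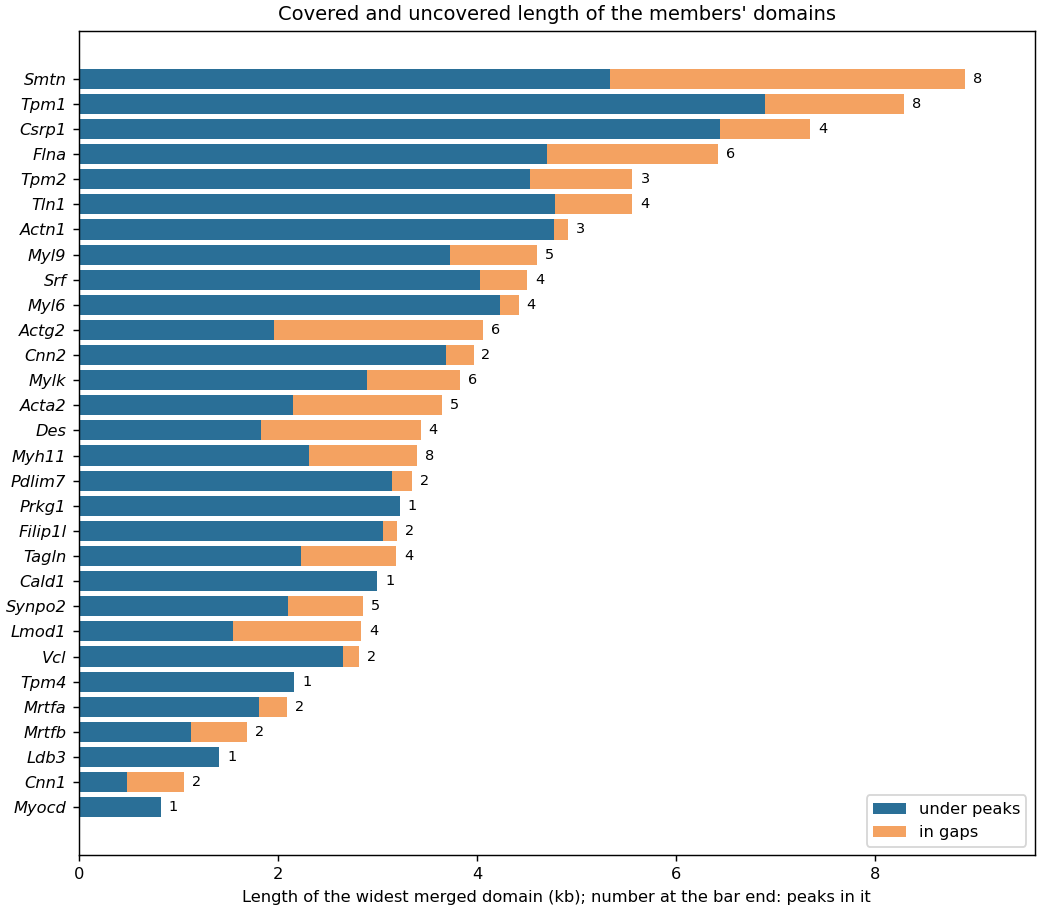
Length in kb of the widest merged domain of each of the 30 genes with a peak, split into the length under peaks and the length in gaps. The number at the end of each bar is the number of peaks. With gaps of at most 1 kb joined, Smtn has the longest domain, 8899 bp with 8 peaks. Actg2 has more of its 4054 bp in gaps than under peaks.

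Of the 10 genes of dense bodies, adhesions and the cytoskeletal links between them, 6 were fragmented. Des, desmin, the intermediate filament of muscle (chromosome 1, 75360292 to 75368579), had 4 weak peaks in 3433 bp, all downstream of its start. They began 64, 992, 2238 and 3061 bp after the start and were 711, 351, 326 and 436 bp wide. Their scores were 20.6, 4.67, 3.17 and 8.998, so that only the first exceeded 10. Synpo2, synaptopodin 2, an actin-bundling protein of muscle (chromosome 3, 123076519 to 123236168), had a 1181 bp peak scoring 87.2 over its start. It was followed by 4 peaks of 153 to 415 bp with scores between 3.99 and 16.6.

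Flna, filamin A, which crosslinks actin and binds integrins (chromosome X, 74223461 to 74249854), had 6 peaks in 6417 bp. Of these, 4 lay upstream of the listed start, the farthest, 1282 bp wide and scoring 46.0, reaching to -3721 bp, across the upper end of the gene model. The start had peaks of 1542 bp (score 75.9) and 675 bp (score 50.6) on its sides. Among the members with a listed start near the domain, that of Flna extended farthest upstream. The window ends 1 kb beyond the gene model, and the listed start of Flna lies well inside its model. Peaks farther upstream could thus be counted at Flna than at members whose start is at the model end, so this ranking depends on the annotation. Flnc, the muscle filamin, had 2 peaks in 3936 bp with a highest score of 111.

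Csrp1, a LIM protein of smooth muscle and other cells (chromosome 1, 135720063 to 135752229), had the widest single peak of the members, 5396 bp with a score of 175. It covered the inner of 2 listed starts, the outer having no peak, and was followed by peaks of 443, 183 and 422 bp with scores up to 9.87. Tln1, talin, which couples integrins to actin (chromosome 4, 43531513 to 43562583), had a 3253 bp peak scoring 220 that also lay within 1 kb of a start of Creb3, and then peaks of 987, 387 and 153 bp with scores of 22.8, 15.4 and 3.87. Actn1, alpha-actinin (chromosome 12, 80167542 to 80260420), had 3359 bp with a score of 153 over the start and then 1229 and 183 bp with 11.6 and 6.16, and a separate 405 bp peak scoring 111 near the other end of its model. In Csrp1, Tln1 and Actn1 the strongest peak was the one at the start, and the scores fell along the gene in Tln1.

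Vcl, Pdlim7, Filip1l and Ldb3 were not fragmented. Vcl, vinculin (chromosome 14, 20929383 to 21033676), had 2 peaks of 562 and 2090 bp with scores of 85.5 and 191 on the sides of its start. Pdlim7, a PDZ and LIM protein (chromosome 13, 55497487 to 55513473), had the highest score of the members, 258, in a peak of 2926 bp. Filip1l, filamin A interacting protein 1-like (chromosome 16, 57353277 to 57572804), had 2 peaks of 1661 bp (score 194) and 1395 bp (score 23.5) at the inner of its listed starts and none at the outer. Ldb3, a Z-disc and dense body protein (chromosome 14, 34526699 to 34590314), had 2 peaks inside its model, of 996 bp (score 29.7) and 1406 bp (score 152), 18204 and 38830 bp after the nearest listed start.

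The pair of genes that act in relaxation had no fragmented domain. Pln, phospholamban, the inhibitor of the calcium pump of the sarcoplasmic reticulum (chromosome 10, 53337686 to 53345999), was the only member without a peak, and its window held 1 CpG. Prkg1, the cyclic GMP-dependent kinase (chromosome 19, 30564487 to 31765268), had 10 peaks over 1200782 bp. Its outer start lay under 3222 bp with a score of 139 and its inner start under 1960 bp with a score of 116. A pair of its other peaks, of 1016 bp (score 132) and 464 bp (score 46.5), lay within 1 kb of a start of Cstf2t, a gene inside it.

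**Figure D3:**
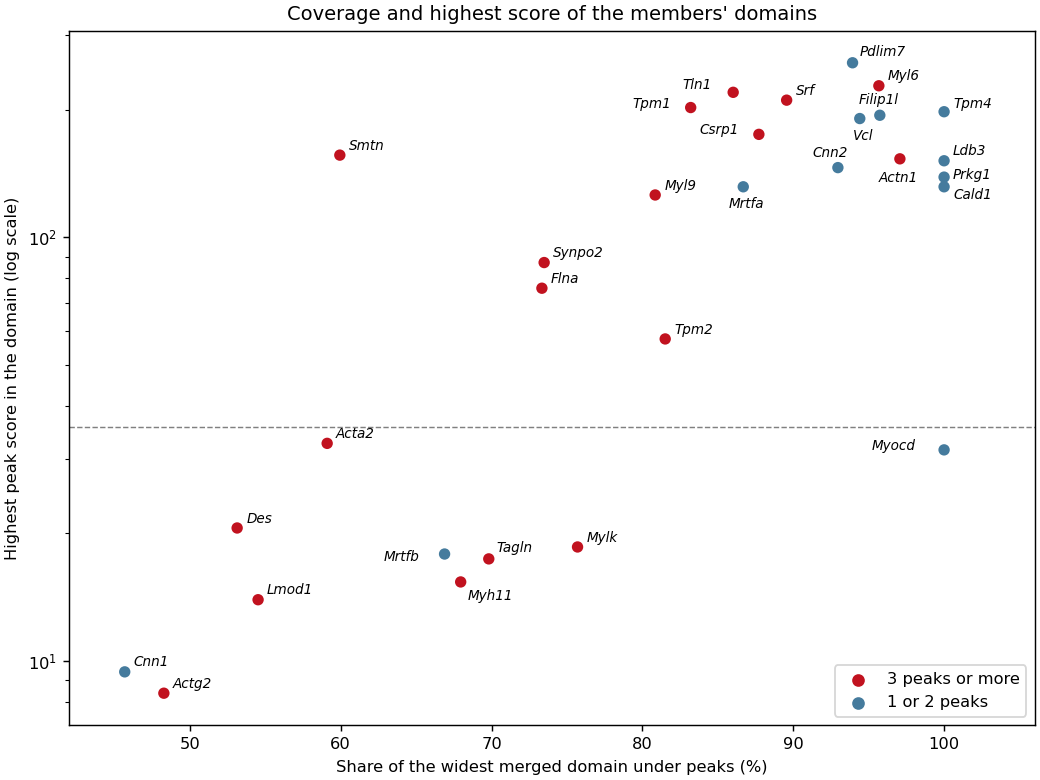
Share of the widest merged domain under peaks (%) against the highest peak score in the domain (log scale) for the 30 genes with a peak. Red points are genes with 3 peaks or more in the domain, blue points genes with 1 or 2, and the dashed line is the median score of the whole list, 35.7. The 7 red points under the line are Acta2, Actg2, Des, Lmod1, Myh11, Mylk and Tagln.

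The fragmented members fell into domains with a strong peak and domains without one. At 7 of the 18 no peak of the domain reached the median score of the list, 35.7, a limit chosen after the values were seen. They were Acta2, Actg2, Des, Lmod1, Myh11, Mylk and Tagln. Over all fragmented domains 13.4% were of this kind, and 1.01% of all protein-coding genes. The other 11 had a highest score from 57.6 (Tpm2) to 228 (Myl6). Domains without a peak above that limit were not confined to fragmented genes. They were found at 3 of the 12 members with a peak but no fragmented domain, and at 1881 of 13020 such genes in all. The median highest score was 81.5 in the 18 fragmented domains and 142 in the 12 others, against 151 and 150 over all genes. Peak number, coverage and score come from the same reads and are not independent of each other.

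**Figure D4:**
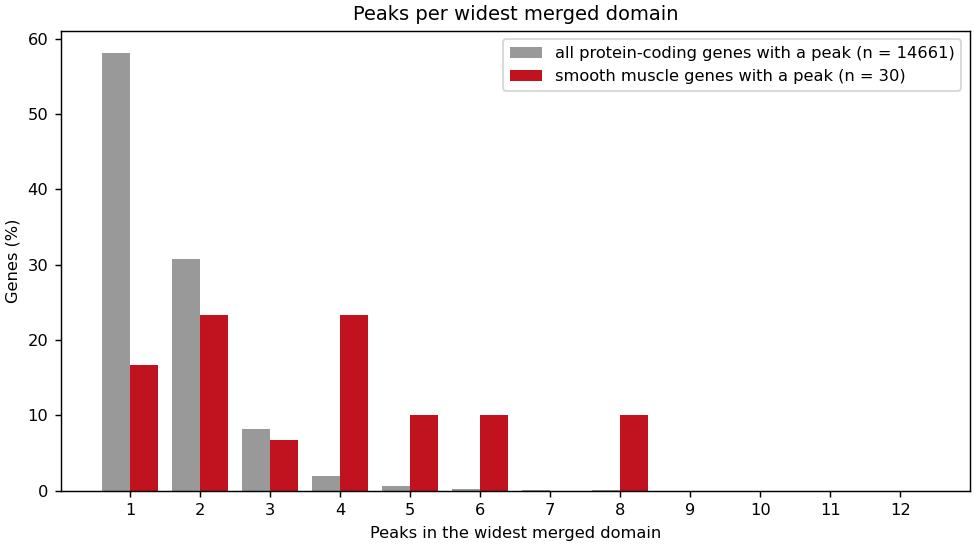
Percentage of genes by the number of peaks in their widest merged domain, for all 14661 protein-coding genes with a peak (grey) and the 30 smooth muscle genes with a peak (red). Most genes have 1 peak (58.1%), while 7 of the 30 have 4 peaks and 3 have 8.

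The fragmented members had gene models of all lengths. Of 7 members with models under 10 kb, 5 were fragmented, against 4.96% of all such genes. Of 12 members from 10 to 50 kb, 9 were, against 7.76%. Of 12 members of 50 kb and over, 4 were, against 11.1%. The members without a fragmented domain had a median model length of 96382 bp and the fragmented ones of 24868.5 bp.

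Other gene lists give the setting of these counts, beside 67% of all protein-coding genes with a peak and 7.5% with a fragmented domain. Among 17 nonmuscle counterparts of the members, 15 had a peak and 5 a fragmented domain, with a median highest score of 204 among those with a peak. Among 40 further genes of smooth muscle structure and signalling, 39 had a peak, Kcnmb1 being the exception, and 11 a fragmented domain. Mrvi1, the partner of the kinase encoded by Prkg1, had 4 peaks in 3662 bp with a highest score of 26.9, and Gucy1a1 and Gucy1b1, the subunits of the nitric oxide receptor guanylyl cyclase, had 2 peaks each with 44.8 and 81.0. Among 37 genes of striated muscle, 8 had a peak and 0 a fragmented domain. The 8 were Actn3 (highest score 240), Myl4 (217), Ckm (37.3), Actn2 (11.6), Casq1 (8.61), Tnni1 (8.18), Acta1 (5.29) and Ryr1 (4.87). The skeletal and heart muscle myosin genes Myh1, Myh2, Myh3, Myh4, Myh6, Myh7 and Myh8, the factors Myod1 and Myog and the titin gene Ttn had no peak.

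The lists of markers of the labelled neurons and of other gut cells were read against the 67% of all protein-coding genes with a peak. A peak lay over 19 of 20 pan-neuronal genes, 10 of 10 enteric glial genes, 15 of 15 genes of interstitial cells and fibroblasts, 6 of 10 epithelial and 7 of 10 endothelial genes. The epithelial and endothelial shares, 60% and 70%, were thus near that of all genes. A fragmented domain was found at 4 of the pan-neuronal, 5 of the glial, 5 of the interstitial, 0 of the epithelial and 1 of the endothelial genes. The share over all protein-coding genes was 7.5%, and the endothelial share of 10% was near it. The median highest score was 19.8 for the pan-neuronal, 94.1 for the glial and 39.4 for the interstitial genes with a peak. It was 19.98 for the epithelial and 15.1 for the endothelial genes with a peak. The smooth muscle genes stood at 135, below the 153 of all protein-coding genes with a peak. Single smooth muscle genes spread widely around their median of 135. These scores are the highest over the whole window of a gene. In the widest domain alone the highest score was lower at Mylk (18.6 against 28.3), Lmod1 (13.9 against 61.7) and Mrtfb (17.9 against 169). Over the window, the lowest were Actg2 (8.38), Cnn1 (9.41), Myh11 (15.4), Tagln (17.4), Des (20.6), Mylk (28.3), Myocd (31.5) and Acta2 (32.6). The highest were Vcl (191), Filip1l (194), Tpm4 (198), Tpm1 (203), Srf (211), Tln1 (220), Myl6 (228) and Pdlim7 (258). Which cells gave the signal at the smooth muscle genes was not tested.

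**Figure D5:**
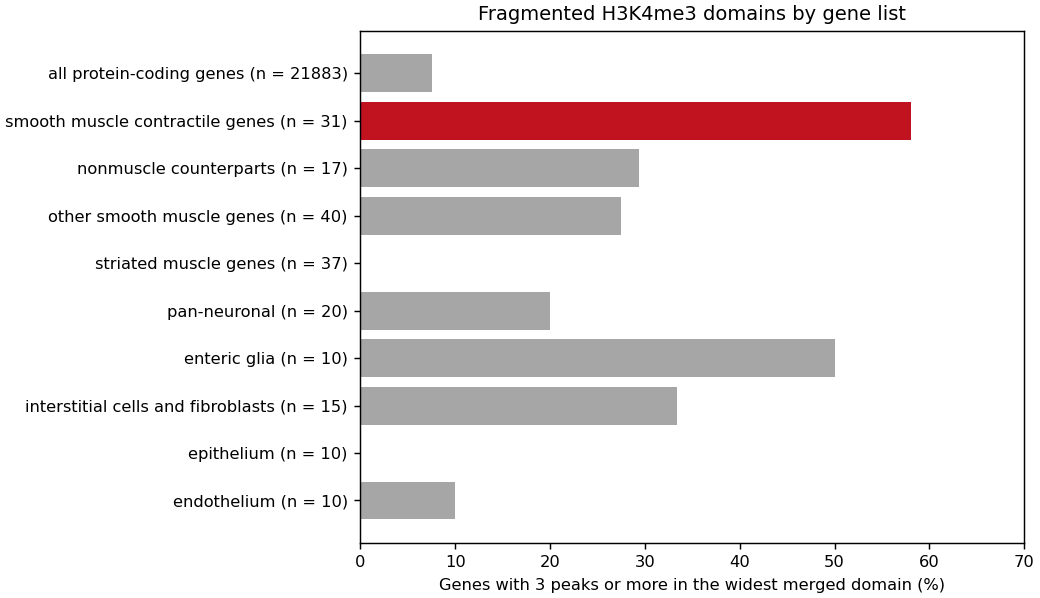
Percentage of genes with 3 peaks or more in the widest merged domain, for all protein-coding genes, the 31 smooth muscle contractile genes (red) and 8 other lists, with the number of genes of each list in brackets. The smooth muscle genes stand at 58.1%, enteric glia at 50%, interstitial cells and fibroblasts at 33.3%, and striated muscle at 0%.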

How the data were processed

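H3K4me3 was measured in 1 immunoprecipitated library, listed with 1 input library. The deposited list holds the authors' peaks with a score of unstated scale. The header line names MACS2 and a paired-end library, and BWA, Picard, MACS2 and mm10 stand in the submitters' processing notes without roles or versions. The sources used here give neither the threshold nor the treatment of duplicates. Coordinates were used as deposited by the authors and are written 1-based.

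Gene models, listed starts and promoter windows of 300 bp came from RefSeq on GRCm38.p6, the assembly that mm10 coordinates follow. The promoter table used here gave starts for 27 members, without Actg2, Myh11, Tagln and Myocd. A peak counted from 1 bp of overlap with the model and 1 kb to each side, and peaks with gaps of at most 1 kb were joined. A peak was called near another protein-coding gene when a listed start of it, or an end of its model where none is listed, lay within 1 kb. Computation used Python 3.11.15, pandas 2.3.3 and numpy 2.4.6. On simulated data 171 of 171 runs that fit into the window were recovered exactly. These had 1 run per gene and no gap above 1 kb, so the splitting of runs and the choice of the widest were not tested.

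Genes were chosen and lists drawn up with earlier results of these data known. All 31 members are described, with peak by peak values mainly for those with the most peaks, and from other lists the family members of these genes. Genes named beyond this, namely Mrvi1, Gucy1a1, Gucy1b1 and those of striated muscle, were chosen after their values were seen. Of 190 list symbols 2 were found under a newer name. No test was made, since there is 1 library. Depth is unknown, since the list gives no read counts.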

Additional observations from a re-analysis of the deposited data

How the results depend on the processing

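The runs rest on weak and narrow peaks. With only the 50% of peaks with the higher scores, 22 members had a peak (57.7% of all genes) and 2 were fragmented (Flna and Srf). The median fell to 1 peak per member and 1 per domain. With only the 25% with the highest scores, 14 members had a peak (37.3% of all genes) and 0 were fragmented. The medians were then 0 peaks per member and 1 per domain of 2125.5 bp, and 12 domains came within 1 kb of a start. The fragmented share of all genes fell to 0.324% and 0.00457%. With only peaks at least 300 bp wide, 9 of the 18 remained fragmented (2.07% of all genes), with medians of 2 peaks per member and 2 per domain. With gaps of at most 500 bp joined, the median was 2.5 peaks per domain, and 15 of the 18 remained fragmented, Des, Lmod1 and Tpm2 being lost. With a joining distance of 2 kb, windows of 0 or 2500 bp, midpoints, prior merging of all peaks, or peaks near other genes left out, 18 or 19 were fragmented, the same 18 among them, and the medians and counts stayed within 1.5 times. The last setting, a limit of 4 peaks (16 members) and the demand that the domain cover the start (22) were added after the data were seen. Without flanks the fragmented share of all genes was 4.4%. Single members moved more than the medians. The number of peaks in the domain changed by more than 1.5 times at 9 of 31 members with 500 bp joined. With 2 kb joined it did so at 2, and Smtn was among the members that moved at both distances. No paired analysis was possible because there is 1 library of each kind and no test.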
